A study of Homo sapiens with 6 samples.

Results

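The MAF and CNC factors are basic leucine zipper (bZIP) transcription factors that bind DNA as dimers. The 9 genes described here are *MAF*, *MAFF*, *MAFG*, *MAFK*, *NFE2*, *NFE2L1*, *NFE2L2*, *BACH1* and *BACH2*, of 56595 gene symbols in the deposited table. They were chosen by family and name, with their values in MSX2-/- and WT libraries already known, so that comparison is given for them as a description, and how many of them passed the test over all genes is stated but supports nothing. Each of the 9 stood on 1 row, and all 9 passed the filter of a mean of 0.5 FPKM. FPKM values are fragment numbers divided by transcript length and by the mapped fragments of the library, so levels of different genes can be set side by side per length.

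RNA was sequenced at day 8 of hematopoietic differentiation of H1, a line of human embryonic stem cells (hESCs). The 2 WT libraries came from H1 cells whose *MSX2* was not targeted, and the 4 MSX2-/- libraries from 2 homozygous clones, called 1# and 2#, with 2 replicates each. The clones were made with CRISPR/Cas9 directed at exon 2 of *MSX2*, a homeobox transcription factor gene, delivered by lentivirus with puromycin selection, and each grew from a single colony. The study writes of guides in the plural, and a single guide sequence from it is examined here. The labels name CD31+ cells, which bear an endothelial surface protein, for the MSX2-/- libraries, and the text of the study names them for WT as well. HAND1 overexpression appears in one protocol among the labels and not in the text of the study. Replicate 1 of every line carries the set letter F in the labels and replicate 2 the letter S, whose meaning is not stated. Nothing in the labels says that replicates were separate cultures, so p-values measure the spread between these libraries, which may be technical.

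In this family, the large MAF factors, such as c-MAF, the product of *MAF*, carry a domain that activates transcription. The small MAF factors MAFF, MAFG and MAFK lack one and pair either with each other or with a CNC factor. NFE2, NFE2L1 and NFE2L2 are CNC activators, and BACH1 and BACH2 are CNC proteins that repress many of the same sites. NFE2 paired with a small MAF is known for its role in erythroid and megakaryocytic cells, and NFE2L1 and NFE2L2 for proteasome and antioxidant genes. c-MAF is known in macrophages, T cells, lens and some endothelial cells.

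The guide and its nearest sites are shown because *MAF* is the member with the closest match to the guide among its annotated transcripts. The guide has 20 bases, and in each site the capitals mark bases that differ from the guide and the last 3 letters are the PAM.
Guide: gggcgtgcgcggcttccgat
MSX2 site: gggcgtgcgcggcttccgattgg
MAF site: gggcgCgcgcggcGtccgCtcgg
In the GENCODE annotation of GRCh38, the MSX2 site is chr5:174729204-174729223 on the minus strand, in coding sequence. The MAF site is chr16:79600357-79600376 on the plus strand, opposite to the gene, in the part annotated as 5′ UTR of the transcript MAF-201. The substitutions at *MAF*, with base 1 as the 5′-most base of the guide, were T6C, T14G and A19C. The best sites followed by NGG in transcripts of the other 8 members had 7 to 10 mismatches. Introns were not searched, nor were transcripts of genes other than the members, 3 related genes and *MSX2*. How common such a match is elsewhere is thus not known. The sequence of this site in the clones was not analysed here, and a part of the guide in the level of *MAF* was not tested.

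A pair of motifs was searched in promoters, from 250 bases before to 50 bases after the gene start (RefSeq, GRCh38.p14), on both strands. TGACNNNGC is the core of the antioxidant response element, to which CNC and small MAF pairs bind, and GCTGANTCA is the NF-E2 site, which also matches TGACNNNGC on the other strand where its N is G. TGACNNNGC was in the promoters of 16.1% of 27305 genes, 1 of 7 members with an entry (*MAFF*), 6 of 17 antioxidant response genes, 3 of 7 listed NFE2 target genes, 3 of 9 genes associated with c-MAF, 4 of 13 regulators of CNC proteins and 7 of 26 proteasome subunit genes. GCTGANTCA was in the promoters of 1.66% of genes, 0 of the 7 members, 3 of 17 antioxidant response genes (*ME1*, *OSGIN1*, *PIR*) and 1 of 7 NFE2 target genes (*TBXAS1*). The windows below show the matched letters in capitals, for the 1 member with a match, for *GCLM*, which encodes a subunit of the glutathione synthesis enzyme, for *TBXAS1*, thromboxane synthase, and for *ALAS2*, the erythroid enzyme that starts heme synthesis and whose values are given with the erythroid genes.
MAFF: cttccaggggGCGGGGTCAtacgggggcg
GCLM: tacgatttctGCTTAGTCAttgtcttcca
TBXAS1: gaataaagttGCTGATTCAttcctttaca
ALAS2: ggtgggtgggGCTGAGTCAgaggagaagg
They lie at chr22:38201862-38201890 (plus strand), chr1:93909446-93909474 (minus), chr7:139829156-139829184 (plus) and chrX:55031008-55031036 (minus). *ALAS2* was added after its values were seen. In *MAFF*, *GCLM* and *ALAS2* the capitals are the reverse complement of TGACNNNGC, and in *TBXAS1* and *ALAS2* they match GCTGANTCA. A match is a description of letters in the reference, and binding was not measured.

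The 6 libraries were alike in depth, at no more than 1.19 times that of WT replicate 1 by the ratio of low values, and 13366 to 14222 genes reached 1 FPKM. *PECAM1*, which encodes CD31, stood between 186 and 258 FPKM in the 6 libraries, and *PTPRC*, the pan-leukocyte gene, at 0.115 FPKM or less. *MSX2* itself had 3.64 and 1.44 FPKM in WT and 18.0, 5.62, 31.8 and 6.69 FPKM in the libraries labelled MSX2-/- (1# replicates 1 and 2, then 2# replicates 1 and 2). Its level was thus higher in all 4. The RNA level does not check an edit of a few bases, and the edited alleles were not analysed here.

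The 9 members differed in direction between MSX2-/- and WT libraries. In the comparison over 15895 genes, the 4 MSX2-/- libraries did not overlap the 2 WT libraries for 5 members, of which 3 were higher (*MAFK*, *NFE2*, *BACH1*) and 2 lower (*MAF*, *NFE2L1*), where 21.3% of all genes tested did not overlap. With limma on log2(FPKM + 1), 3 members (*MAF*, *NFE2*, *NFE2L1*) had an adjusted p under 0.05, against 1.28% of all genes. With the replicate number as a block, 4 had one, *MAFK* being the fourth, against 9.85% of all genes. Since the members were picked with this contrast known, nothing is read from these counts. The median log2 difference was -0.11 over the members and 0.01 over all genes tested. In bulk RNA, fewer cells of a type and less RNA per cell cannot be told apart.

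**Figure D1:**
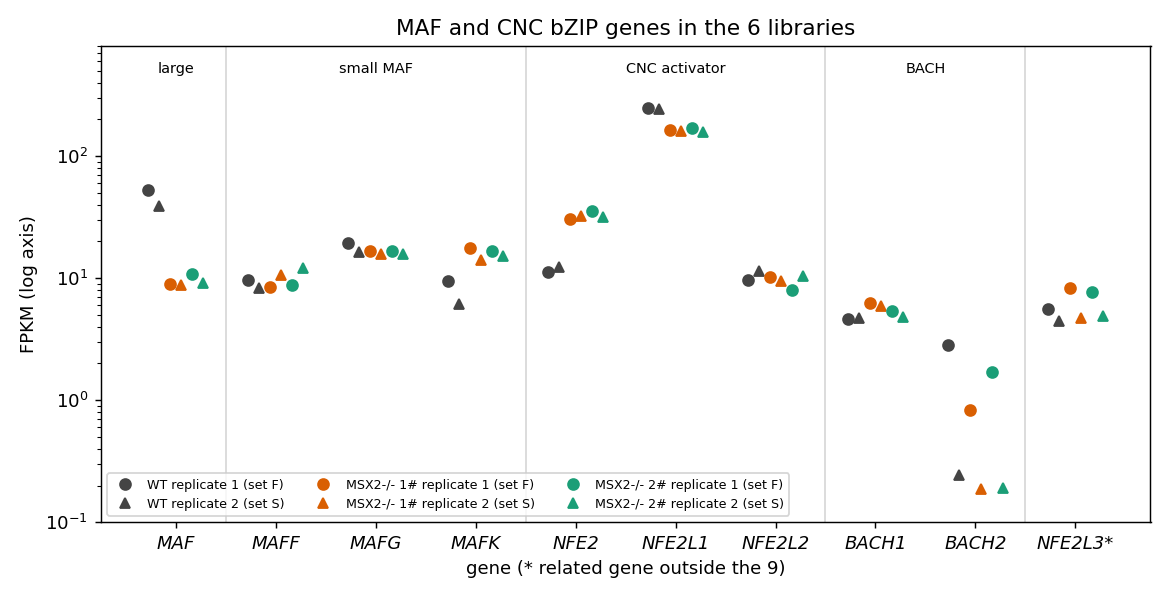
FPKM of each member and of the related gene *NFE2L3* on a log axis, with 1 point per library (grey WT, orange clone 1#, green clone 2#, circles replicate 1 of set F, triangles replicate 2 of set S). *MAF* lies at 39.4 and 53.1 FPKM in WT and at 8.74 to 10.9 FPKM in MSX2-/-, *NFE2* shows the opposite order, and *BACH2* splits by set instead.

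*MAF* (chr16:79585843-79600714, minus strand) is the large MAF gene among the members. It had 53.1 FPKM in WT replicate 1 and 39.4 FPKM in WT replicate 2, and 8.93, 8.74, 10.9 and 9.17 FPKM in the MSX2-/- libraries. The lowest WT value was thus far above the highest MSX2-/- value, and the 4 MSX2-/- values lay close together. The means were 46.2 ± 9.69 (SD, n = 2) and 9.44 ± 0.993 FPKM (SD, n = 4), a ratio of 4.90. The log2 difference was -2.17 (SE 0.17), -2.25 for clone 1# alone and -2.09 for clone 2# alone. Against the WT library of the same number, each MSX2-/- library held between 0.168 and 0.233 of the WT level. No annotated gene overlaps *MAF* in GENCODE, in contrast to the other 8 members.

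A pair of related large MAF genes was listed, like the members, with earlier results of these data known. *NRL*, a photoreceptor factor, was at 0.331 to 1.23 FPKM (adjusted p = 0.946, limma). *MAFA*, a factor of pancreatic beta cells, was at 0.594 FPKM or less and was not tested.

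Of the small MAF genes, *MAFK* (chr7:1530714-1543043, plus strand) was the one whose groups did not overlap. It had 9.54 and 6.17 FPKM in WT, and 17.6, 14.1, 16.6 and 15.3 FPKM in MSX2-/-. All 4 MSX2-/- values stood above the higher WT value, while the WT libraries differed from each other by a ratio of 1.55. Its log2 difference was 0.95 (SE 0.19 without and 0.11 with the replicate block). With WT replicate 1 left out it was 1.23, and with WT replicate 2 left out 0.68.

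*MAFG* (chr17:81918270-81927714, minus strand) was the most abundant small MAF gene in WT. It had 19.2 and 16.2 FPKM in WT and 16.7, 15.9, 16.7 and 15.7 FPKM in MSX2-/-. The groups overlapped, and the log2 difference was -0.11 (SE 0.13). *SIRT7*, at a mean of 16.1 FPKM, overlaps it on the same strand, so its reads may be shared.

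*MAFF* (chr22:38200767-38216511, plus strand) had 9.63 and 8.35 FPKM in WT and 8.48, 10.6, 8.81 and 12.0 FPKM in MSX2-/-. The groups overlapped, at a log2 difference of 0.13 (SE 0.18). *PLA2G6*, at a mean of 14.4 FPKM, overlaps it on the other strand, and the use of strand in counting is not given in the sources used here.

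Set side by side per length, the 3 small MAF genes summed to 38.4 and 30.8 FPKM in WT and 40.7 to 43.1 FPKM in MSX2-/-. *MAFG* made up 50.1% and 52.8% of that sum in WT and 36.5% to 39.8% in MSX2-/-. *MAFK* made up 24.8% and 20.1% in WT and 34.7% to 41.1% in MSX2-/-. *MAFF* made up 25.1% and 27.2% in WT and 19.8% to 27.9% in MSX2-/-. In WT the order was thus *MAFG* first, with *MAFF* and *MAFK* at like levels in replicate 1 and *MAFF* above *MAFK* in replicate 2. In MSX2-/-, *MAFK* and *MAFG* stood at like levels, at means of 15.9 ± 1.50 and 16.3 ± 0.544 FPKM (SD, n = 4), and *MAFF* stood lower at 9.98 ± 1.65. These are shares of RNA, and protein was not measured.

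**Figure D2:**
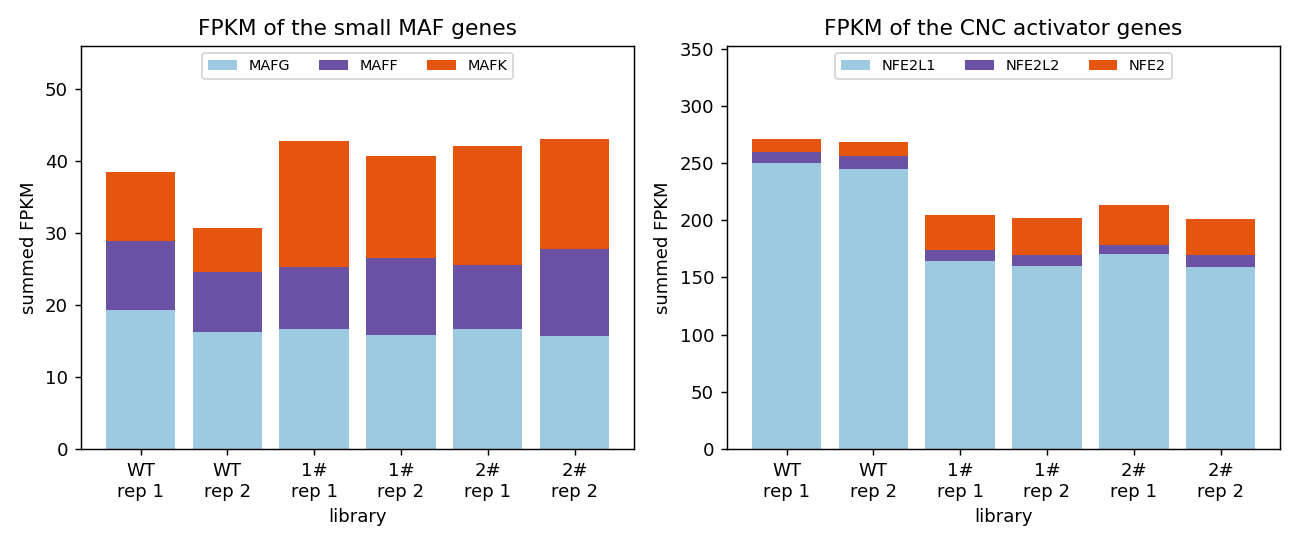
FPKM of the small MAF genes (left) and the CNC activator genes (right), stacked, with 1 bar per library. On the left *MAFK* takes a larger part of the 4 MSX2-/- bars, and on the right *NFE2* makes up 4.14% and 4.56% of the sum in WT and 14.8% to 16.7% in MSX2-/-, where the total is lower.

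Among the CNC activators, *NFE2* (chr12:54292111-54301121, minus strand) was higher in MSX2-/-. It encodes the subunit of NF-E2 that is found mainly in blood cells. Its values were 11.2 and 12.2 FPKM in WT and 30.3, 32.2, 35.6 and 31.9 FPKM in MSX2-/-. The groups were far apart, and within each group the values lay close together. The means were 11.7 ± 0.713 (SD, n = 2) and 32.5 ± 2.22 FPKM (SD, n = 4), a ratio of 2.77. The log2 difference was 1.40 (SE 0.13), 1.34 for clone 1# alone and 1.45 for clone 2# alone. Against the WT library of the same number, the ratios ran from 2.61 to 3.17.

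*NFE2L1* (chr17:48048329-48061487, plus strand) was by far the most abundant member. Its product is held at the endoplasmic reticulum until it is processed. It had 250 and 245 FPKM in WT and 164, 160, 170 and 159 FPKM in MSX2-/-. The groups did not overlap, and the values varied little within each. The means were 247 ± 3.82 (SD, n = 2) and 163 ± 5.04 FPKM (SD, n = 4), and the log2 difference was -0.60 (SE 0.08). The log2 difference of each MSX2-/- library from the WT library of its number ran from -0.62 to -0.55, so *NFE2L1* had the smallest range of the 9 members in this measure.

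*NFE2L2* (chr2:177227595-177392697, minus strand), which encodes NRF2, the factor held in check by KEAP1, had 9.73 and 11.4 FPKM in WT. In MSX2-/- it had 10.3, 9.49, 7.99 and 10.5 FPKM. The groups overlapped, and the log2 difference was -0.14 (SE 0.16, interval -0.53 to 0.26). Its annotated span overlaps *AGPS*, at a mean of 23.3 FPKM, on the other strand. *NFE2L3*, the remaining CNC activator gene and not among the 9, had 5.56 and 4.49 FPKM in WT and 8.36, 4.71, 7.70 and 4.91 FPKM in MSX2-/- (adjusted p = 0.816, limma). It overlaps *HNRNPA2B1*, at 439 FPKM, on the other strand.

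The 3 activators summed to 271 and 268 FPKM in WT and 201 to 214 FPKM in MSX2-/-. *NFE2L1* made up 92.3% and 91.2% of the sum in WT and 78.9% to 80.2% in MSX2-/-. The level of *NFE2* was 29.2% and 39.8% of the small MAF sum in WT and 70.8% to 84.5% in MSX2-/-. The level of *MAF* was 138% and 128% of that sum in WT and 20.9% to 25.9% in MSX2-/-. In both ratios the groups did not overlap, as follows from the values of *NFE2* and *MAF* already given.

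The BACH repressors were the least abundant members. *BACH1* (chr21:29194071-29630751, plus strand), whose product senses heme, had 4.65 and 4.72 FPKM in WT and 6.21, 5.89, 5.42 and 4.83 FPKM in MSX2-/-. All 4 were above WT, but 2# replicate 2 exceeded its WT library by a ratio of only 1.02, and the log2 difference was 0.21 (SE 0.16). It was 0.31 for clone 1# alone and 0.11 for clone 2# alone. *BACH2* (chr6:89926529-90296908, minus strand), best known in B cells, had 2.82 and 0.242 FPKM in WT and 0.827, 0.189, 1.72 and 0.192 FPKM in MSX2-/-. Its WT libraries lay further apart than the groups did, and its log2 difference of -0.42 (SE 0.53) became 0.39 with WT replicate 1 left out and -1.23 with WT replicate 2 left out. The sum of both BACH genes was 7.47 and 4.96 FPKM in WT and 5.02 to 7.14 FPKM in MSX2-/-.

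**Figure D3:**
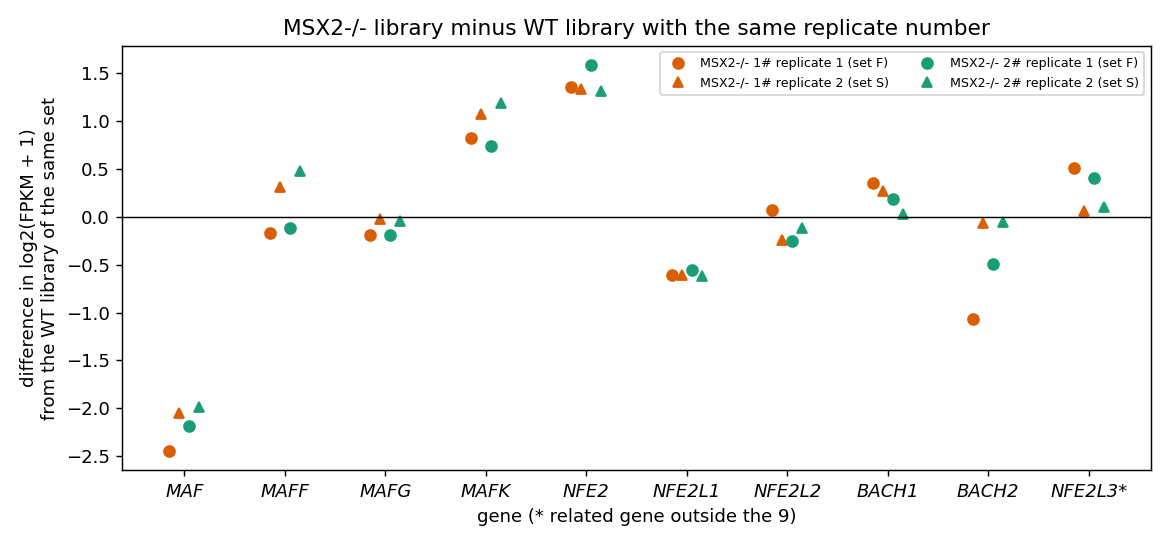
Difference in log2(FPKM + 1) of each MSX2-/- library from the WT library with the same replicate number, with 1 point per MSX2-/- library (orange clone 1#, green clone 2#, circles replicate 1, triangles replicate 2). *MAF* lies at -2.45 to -1.99, *NFE2* at 1.32 to 1.58 and *MAFK* at 0.74 to 1.19, while *MAFF* is below 0 in both circles and above 0 in both triangles.

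Sets S and F were compared over all 6 libraries with genotype in the model, a contrast that was not used to choose the members. *BACH2* passed the filter of 0.5 FPKM only through set F (2.82, 0.827 and 1.72 FPKM in WT, 1# and 2#), while its values in set S (0.242, 0.189 and 0.192 FPKM) were all below it, so its values are a description and its test is not used. None of the other 8 members was called (limma; 1, *MAFK*, had an unadjusted p under 0.05), against 34.6% of all genes tested.

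*MAFK* was lower in set S by 0.32 (SE 0.11), in 3 of 3 pairs, and did not pass the test (adjusted p = 0.0621, limma). The remaining 7 had adjusted p from 0.162 to 0.902 (limma). Of these, *MAF*, *MAFG* and *NFE2L1* were also lower in set S in 3 of 3 pairs. For *NFE2* the difference between the sets was 0.02, with an interval from -0.20 to 0.23, and for *NFE2L1* it was -0.05, from -0.18 to 0.07. For *MAF* it was -0.23, from -0.49 to 0.04. Outside the 9 members, *NFE2L3* fell by 0.51 (SE 0.12, adjusted p = 0.0218, limma), lower in set S in 3 of 3 pairs.

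**Figure D4:**
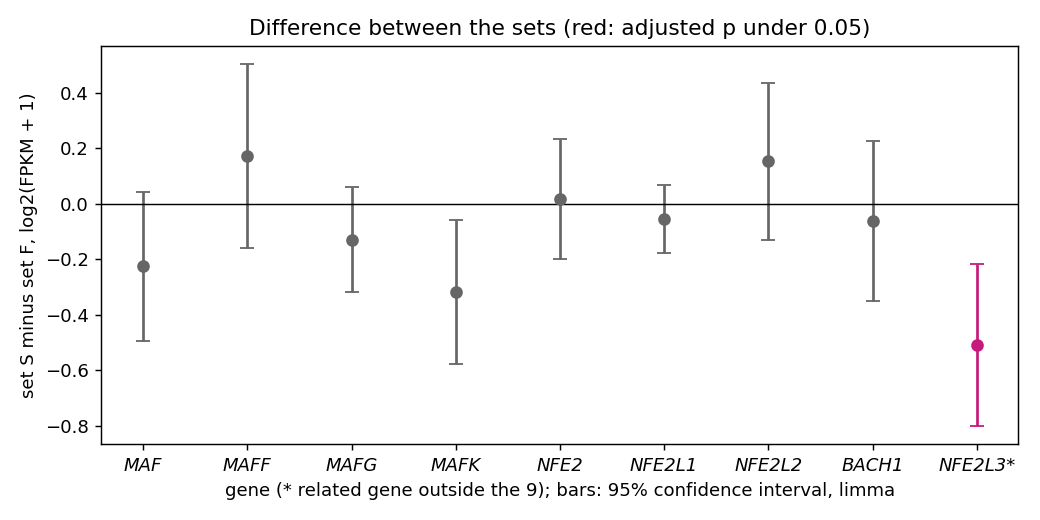
Difference between set S and set F on log2(FPKM + 1) for 8 members and *NFE2L3*, without *BACH2*, with 95% confidence intervals from limma (n = 3 libraries per set, genotype in the model). The interval of *NFE2L3*, drawn in red, passed the test, and that of *MAFK* lies below 0 without passing it.

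The clones were compared with the replicate number as a block. No member passed the test between 2# and 1#, with 0 of 9 called (limma) and 0 at an unadjusted p under 0.05, where 0.0% of all genes were called and 530 had an unadjusted p under 0.05. For *MAF* the difference was 0.16 (interval -0.18 to 0.50), for *NFE2* 0.11 (-0.19 to 0.40), for *MAFK* 0.01 (-0.36 to 0.39) and for *NFE2L1* 0.02 (-0.16 to 0.21). The least precise was *BACH2*, at 0.29 (SE 0.28).

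The difference between MSX2-/- and WT was also compared between sets. None of the 9 members was called (limma), 1 (*MAFF*) had an unadjusted p under 0.05, and 0.0189% of all genes were called. For *MAF*, which was lower in MSX2-/-, the log2 difference in set S minus that in set F was 0.29 (interval -0.24 to 0.83), a smaller drop in set S. For *NFE2*, which was higher, it was -0.15 (interval -0.61 to 0.32), a smaller excess in set S. This fit left few residual degrees of freedom, and the intervals are wide.

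Regulators of CNC proteins, such as KEAP1, the ligases that mark these factors for degradation and the enzymes that process NFE2L1, formed a list of 16 genes, all tested. None was called without the block (limma; 1 had an unadjusted p under 0.05), and 2 rose with it, where 6.11% of all genes were called higher with the block. *DDI2*, the protease that cleaves NFE2L1, had 7.75 and 6.66 FPKM in WT and 12.5 to 14.1 FPKM in MSX2-/-, with no overlap. Its log2 difference was 0.81 (SE 0.14), with an adjusted p of 0.0558 without and 0.00741 with the block (limma), and 0.0524 with the block and WT replicate 2 left out. *FBXO22*, a ligase adaptor for BACH1, had a log2 difference of 0.63 (SE 0.29), with an adjusted p of 0.478 without and 0.0123 with the block. Its blocked call was lost without WT replicate 1 (adjusted p = 0.0873), and without the block its difference was 0.38 with WT replicate 2 left out. *FBXW7* (0.28) and *NGLY1* (0.23) had the next largest differences and passed neither fit. The median of the list was -0.01.

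None of the 31 proteasome subunit genes was called in MSX2-/- against WT, with or without the block (limma), and 0 had an unadjusted p under 0.05 without the block and 1 with it. Their median log2 difference was 0.07, and the largest were 0.22 for *PSMA5*, 0.20 for *PSMC6*, 0.20 for *PSMB5* and 0.16 for *PSMA2*. Between the sets, by contrast, 22 of 31 were higher in set S and none lower, where 15.6% of all genes were called higher. Their median there was 0.28, against -0.03 for all genes. *NFE2L1*, whose product is known to activate these genes, did not pass the test between the sets (adjusted p = 0.435, limma). That is its RNA level, and a part of NFE2L1 in the set difference of the proteasome subunit genes was not tested.

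Of 24 antioxidant response genes, all tested, none was called without the block (limma; 4 had an unadjusted p under 0.05). With the block, where 6.11% of all genes were called higher, 1 was called. That one was *BLVRB*, a biliverdin reductase, with a log2 difference of 0.47 (SE 0.23; adjusted p = 0.522 without and 0.0327 with the block), and its blocked call was lost when any 1 library was left out (adjusted p from 0.0501 to 0.16). *SLC7A11*, the cystine transporter, had a difference of 0.56, at 0.226 and 0.527 FPKM in WT and 0.502 to 1.45 FPKM in MSX2-/-. Its WT mean of 0.376 FPKM was under the filter of 0.5 FPKM, which it passed through its MSX2-/- values. Its difference is thus a description, its test is not used, and the counts of this list include it. *ABCC1*, an exporter, had a difference of 0.40 and *NQO1*, a quinone reductase, -0.51, and neither passed either fit. The median of the list was 0.14.

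Of 12 NFE2 target genes of platelets and red cells, 11 were tested and *TUBB1*, platelet tubulin, was not, at 0.269 to 0.644 FPKM. None was called without the block (limma; 0 had an unadjusted p under 0.05). With it, where 6.11% of all genes were called higher, 1 was called. That was *LIMS1*, an adaptor of focal adhesions, at the threshold (log2 difference 0.39, SE 0.25, adjusted p = 0.659 without and 0.0497 with the block). Without the block its difference was 0.03 with WT replicate 1 left out and 0.75 with WT replicate 2 left out, and with the block the call was lost when any library but 1# replicate 2 was left out (adjusted p from 0.0685 to 0.235). *HBE1*, embryonic globin, had 36.6 and 24.4 FPKM in WT and 125, 36.5, 164 and 35.9 FPKM in MSX2-/-. Its high values were thus the 2 MSX2-/- libraries of replicate 1. The log2 difference of *HBE1*, the largest of the list, was 1.24 (SE 0.68, adjusted p = 0.577 without and 0.0536 with the block, limma). *HBG2* (0.85) and *HBB* (0.63) had the next largest differences and passed neither fit. *HBG2* had 51.7 and 37.3 FPKM in WT and 124, 42.0, 197 and 39.0 FPKM in MSX2-/-, so replicate 1 held its high values too. *HBB* was low, at 0.258 to 3.24 FPKM over the 6 libraries. Reads of *HBG2* may be shared with its near-identical copy *HBG1*. The median of the list was 0.22.

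Of 15 genes associated with c-MAF, 8 were tested, and none was called without the block (limma; 2 had an unadjusted p under 0.05). With it, 2 fell, where 3.74% of all genes were called lower with the block. *MRC1*, the mannose receptor, had 41.2 and 20.6 FPKM in WT and 10.8, 9.47, 12.5 and 9.76 FPKM in MSX2-/- (log2 difference -1.38, SE 0.28, adjusted p = 0.0838 without and 0.00737 with the block). Without the block its difference was -0.90 with WT replicate 1 left out and -1.87, with an adjusted p of 0.0424, with WT replicate 2 left out. *STAB1*, a scavenger receptor, had a log2 difference of -0.53 (SE 0.37, adjusted p = 0.698 without and 0.00743 with the block). Without the block its difference was -0.92 with WT replicate 1 left out and -0.15 with WT replicate 2 left out, and with the block it was -0.44 and -0.63. *LYVE1* (-0.52) had 1.28 and 0.758 FPKM in WT and a mean of 0.401 FPKM in MSX2-/-. It thus passed the filter of 0.5 FPKM through its WT values. Its difference is a description, its test is not used, and the counts of this list include it. *DEPTOR* (0.48) passed neither fit. The median of the list was -0.12.

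Lists of cell type markers were described in the same libraries, and they differed in direction and in how many genes were called. Of 10 erythroid markers, 9 were tested and 3 (*ALAS2*, *KLF1*, *GYPB*) were called higher in MSX2-/-, where 0.963% of all genes were. The summed level of the list was 109 to 129 FPKM in WT and 230 to 596 FPKM in MSX2-/-. Its globin genes were all above WT in both clones in set F. In set S, *HBZ* (7.13 and 8.27 against 8.32 FPKM in WT), *HBA2* and *HBG1* lay below WT in both clones. There *HBA1* lay below WT in 2# alone, and *HBE1* and *HBG2* (42.0 and 39.0 against 37.3 FPKM) lay above it. *AHSP*, a defining erythroid marker, was listed at 0 in all 6 libraries. *ALAS2* had 7.48 and 9.28 FPKM in WT and 63.4, 42.2, 84.8 and 47.3 FPKM in MSX2-/-. Of 10 endothelial markers, 2 (*CDH5*, *TIE1*) were called lower, where 0.321% of all genes were, or 7 with the replicate block, where 3.74% were, and all 10 had a log2 difference below 0. Their summed level was 3140 to 3810 FPKM in WT and 2040 to 3220 FPKM in MSX2-/-, with overlap.

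Of 9 blood progenitor markers, 8 were tested and 1 (*GFI1*) rose, or 4 with the block. The summed levels of the list were 229 to 378 FPKM in WT and 331 to 443 FPKM in MSX2-/-. For this list and those that follow, 0.963% of all genes were called higher without the block and 6.11% with it. The shares of all genes called lower were 0.321% and 3.74%. Of 9 megakaryocyte markers, 7 were tested and none was called, or 2 higher with the block (limma; 2 had an unadjusted p under 0.05 without it), and *PPBP*, a defining platelet gene, was at 0.213 FPKM or less. Of 9 myeloid markers, 6 were tested and none was called, or 1 higher and 1 lower with the block (limma; 1 had an unadjusted p under 0.05 without it), summed levels overlapped at 37.1 to 51.4 and 38.6 to 51.8 FPKM, and *MPO* and *CD163* were at 0.848 FPKM or less. Of 8 mesenchymal markers, 7 were tested and 2 (*COL1A1*, *TAGLN*) rose, or 4 with the block, with summed levels of 134 to 190 FPKM in WT and 370 to 418 FPKM in MSX2-/-. *COL1A1* led that sum in MSX2-/-, at 27.7 and 55.9 FPKM in WT and 193 to 206 FPKM in MSX2-/-. *COL3A1* went the other way (log2 difference -0.54), at 32.9 and 51.1 FPKM in WT and 28.0, 25.0, 48.8 and 17.4 FPKM in MSX2-/-, and passed neither fit. Of 6 pluripotency and 4 hepatic markers, 4 each were tested, and none was called (limma; 0 had an unadjusted p under 0.05), or 1 pluripotency marker, *LIN28A*, higher with the block. Summed pluripotency levels were 92.9 and 111 FPKM in WT and 110 to 132 FPKM in MSX2-/-. Summed hepatic levels were 39.1 and 70.2 FPKM in WT, 222 and 192 FPKM in 1# and 107 and 11.7 FPKM in 2#. *ALB*, with the highest mean of the list over the 6 libraries, had 122 and 125 FPKM in 1# and 15.3 and 0 FPKM in 2#. In 2# the sum was led by *APOA1*, at 72.1 and 10.4 FPKM. The part of these cell types in the differences of *MAF*, *NFE2*, *MAFK* and *NFE2L1* was not tested.

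The genes whose pattern over the 6 libraries was most like that of *NFE2* were sought among 9541 others with a mean of at least 5 FPKM, by Pearson's r on log2(FPKM + 1). The first was *GGCT*, an enzyme of glutathione breakdown (r = 0.998), followed by *RBBP6*, a ubiquitin ligase, *FDXR*, a mitochondrial reductase, *CCDC80* and *GATA1*, down to r = 0.994 for *GATA1*, the erythroid and megakaryocytic factor, which had 7.68 and 8.90 FPKM in WT and 17.5 to 20.8 FPKM in MSX2-/-. For *MAF* they were the clone-named gene *AC105001.2*, *WDR37*, *TIE1*, *NT5E* and, at r = 0.995, the member *NFE2L1*. *TIE1* encodes an endothelial receptor and *NT5E* the ecto-5′-nucleotidase CD73, at 42.5 and 37.2 FPKM in WT and 7.93 to 11.2 FPKM in MSX2-/-. The 6 libraries fall into 2 genotypes, so a high r mostly reflects the step between them, and it is given as a measure of likeness without a p.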

How the data were processed

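RNA-seq of 2 WT and 4 MSX2-/- libraries was deposited by the authors as 1 table of FPKM values, with replicates not pooled. The submitters' processing notes name BWA, Bowtie, RSEM and hg19, and the design text of the series names TopHat with Cufflinks. Versions, annotation and the use of strand are not given in the sources used here. The table held 58364 rows with values and no read counts, so intervals that need counts are not given, and the absolute depth is unknown. Clones are named as in the columns, since the labels number them otherwise.

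Genes were kept where the mean over the libraries reached 0.5 FPKM (15895 genes) and tested on log2(FPKM + 1) with limma 3.58.1 (R 4.3.3), with empirical Bayes moderation and a trend of variance on mean, adjusting p by Benjamini-Hochberg at 0.05, and the fits were tested on simulated data. Fold changes on this scale understate those of low genes. The comparisons were MSX2-/- with WT (no block, or the replicate number as a block), set S with set F (genotype as a term), clone 2# with 1#, and the interaction of genotype and set. Replicate numbers were taken as pairs because the labels give each number a set letter and the differences between replicates 2 and 1 correlated across genes, which are not independent, at 0.508 (WT and 1#), 0.54 (WT and 2#) and 0.636 (1# and 2#). Positions and sites come from GENCODE on GRCh38, a build other than that of the notes, and promoters from RefSeq, where 7 of 9 members had an entry.

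The members and gene lists were chosen with earlier results of these data known. Named genes are the members, 3 related genes, the genes called and the 4 with the largest differences in each list, the 5 most like *NFE2* and *MAF*, *MSX2*, and markers listed at 0 or leading their list. Other named markers and genes were picked with their values in view. Genes withheld from this work are not reported, and counts over gene lists leave them out. Alternatives were a pseudocount of 0.1, no filter, rescaled libraries, 3 groups, rows summed per symbol, each clone alone and each library left out.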

Additional observations from a re-analysis of the deposited data

Results flagged for a closer look

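In *MAFF*, both MSX2-/- libraries of set F lay below their WT library (8.48 and 8.81 against 9.63 FPKM) and both of set S above theirs (10.6 and 12.0 against 8.35 FPKM). Each set holds a single WT library, so the comparisons within a set share it and are not independent. The difference between MSX2-/- and WT in set S exceeded that in set F by 0.54 on the log2 scale (adjusted p = 0.409, limma), which did not pass the test. *NRL*, at 0.331 to 1.23 FPKM, had the opposite pattern, above WT in both MSX2-/- libraries of set F and below it in both of set S, with a difference of -0.54 (adjusted p = 0.616, limma). No value among the 4 MSX2-/- libraries stood apart from the other 3 by Dixon's criterion in any of 12 genes examined.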

How the results depend on the processing

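In MSX2-/- against WT, 204 genes were called. The count was 1566 with the replicate block, 125 without the filter, 6 with 3 groups and 19 to 82 with each library left out. With the block kept, leaving out a library gave 704 to 1002. With the block, calls among listed genes went from 0 to 2 for regulators of CNC proteins, 0 to 1 for antioxidant genes, 0 to 1 for NFE2 targets and 0 to 2 for genes associated with c-MAF. Over all genes tested, the share called went from 1.28% to 9.85%. A pseudocount of 0.1 called 1 regulator. For genes associated with c-MAF, leaving out a library gave 0 to 1. In the paired fit with the block, *MAFK* also passed the threshold. Sets S and F differed in 5492 genes, 3593 without the filter, 3112 without the genotype term and 3159 to 4789 with a library left out. The count of members past the threshold there, 1 (*BACH2*, whose test is not used), was 0 without the filter and 0 to 1 with a library left out. Between clones, 0 genes were called (530 at an unadjusted p under 0.05, limma), 1 with a pseudocount of 0.1 and 1 to 16 with a library left out. The interaction called 3 genes, 0 with a pseudocount of 0.1, 693 without the filter and 0 to 0 without each MSX2-/- library. The leave-outs of the blocked, clone and interaction fits were added after seeing the data. The cause of these changes was not tested. The sign of the log2 difference of 7 members between MSX2-/- and WT held in all 12 alternatives, and those of *MAFG* and *BACH2* turned without WT replicate 1, to 0.003 and 0.39. The replicate block and the summed rows gave the main value of every member again, so they could not change a sign. Since the members were picked with the values of MSX2-/- and WT known, nothing is read from these signs. The absolute depth is unknown, so its limits on low genes such as *BACH2* and *NRL* could not be computed.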

Other observations

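Between the sets, 4 of 16 regulators of the CNC factors were higher in set S and 2 lower, where 34.6% of all genes were called, so the share is near the background. The genes named here were picked with their values in view. *KEAP1*, the sensor that holds NRF2 in check, had 35.7, 33.1 and 32.6 FPKM in set F and 51.1, 55.0 and 56.7 FPKM in set S (log2 difference 0.67, adjusted p = 0.00241, limma). *FBXO22* was lower in set S in 3 of 3 pairs (log2 difference -0.64, adjusted p = 0.00432, limma). Of the 24 antioxidant response genes, where the share called did not exceed that background either, 3 were higher in set S, among them *TXNRD1*, thioredoxin reductase (0.67, adjusted p = 0.00641), and 4 lower, among them *ABCC1* (-0.72, adjusted p = 0.0134, limma).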
